A study of Mus musculus with 153 samples.

Results

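The 9 genes Cldn5, Pecam1, Cdh5, Flt1, Kdr, Tek, Abcb1a, Slco1a4 and Ly6c1, which mark the endothelial cells of brain capillaries, were followed through every library of the series. They were taken by name from 25103 gene symbols listed across the 6 deposited count tables, and all 9 were found in each table. Levels are given in CPM, the counts of a gene per 1000000 counts of its library.

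Brain capillary endothelium forms the blood-brain barrier. Its cells are sealed by tight junctions, in which Cldn5 is the main claudin, and are held together by the adhesion proteins Pecam1 (CD31) and Cdh5 (VE-cadherin). They sense vascular endothelial growth factor through Flt1 and Kdr and angiopoietins through Tek (Tie2). The efflux pump Abcb1a (P-glycoprotein) and the organic anion transporter Slco1a4 move compounds across the barrier, and Ly6c1 is a surface protein anchored by a lipid tail that is abundant on brain vessels of the mouse. Wnt ligands from neighbouring cells maintain the barrier programme. None of the 9 genes is in use as a marker of neurons.

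The tissue was mouse dorsal hippocampus. Mice of the genotypes Camk2a.Cre/TRAPfl, Pvalb.Cre/TRAPfl and Sst.Cre/TRAPfl carried a Cre driver, which marks excitatory, parvalbumin or somatostatin neurons, with a Cre-dependent allele for translating ribosome affinity purification (TRAP), by which ribosome-bound RNA of the marked cells is pulled down. Each animal group gave purified libraries and total lysates, and all samples carry the cell type label Neuron, lysates included. Conditions were conditioning with a foot shock in a new context (shock), the context alone (box) and the home cage, in a 15 min set and a 60 min set, each with its own home cage mice. Every mouse therefore carried a Cre driver and the TRAP allele. No age or sex is given in the labels, and what the Camk2a driver marks beside pyramidal neurons was not examined.

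The 151 libraries were 76 purified and 75 lysate libraries in 36 groups of 3 to 6, and 2 further samples in the labels were not analysed here. Library totals ran from 9043042 to 397228206 counts. Some purified Sst libraries stood apart. Summed over 10 markers, microglial RNA reached 3374 to 5977 CPM in 4 of 5 shock libraries at 15 min, and 4325, 3275 and 3673 CPM in 1 box and 2 home cage libraries at 60 min, while no lysate of the line exceeded 938 CPM. In 9 purified Sst libraries, among them all 4 shock libraries at 60 min, the level of Sst itself, at 2.98 to 242 CPM, did not exceed that of the highest lysate of their set, which goes against their label as purified from Sst neurons. For the 9 genes, tests that rest on these libraries are given with and without them, though not every exclusion is given for every comparison. Values of other genes, of the marker lists and of the correlations are given with these libraries only. In a bulk library, fewer endothelial cells and less RNA per endothelial cell cannot be told apart.

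Promoter sequences are shown for 4 genes whose purified and lysate levels carry the comparisons below, so that the DNA at their starts can be set beside them. RefSeq (GRCm38.p6) gave windows of 300 bases, 250 before and 50 after the annotated start, for 7 of the 9 genes, and Pecam1 and Cdh5 had none in the table used here. Capitals mark AGGAAG on either strand (CTTCCT on the printed strand when reversed). This string holds the shorter GGAA core of ETS factors, which are known regulators of endothelial genes. Shorter matches to that core were not counted. Sequences are printed 5′ to 3′ on the strand of the gene, namely chr16:18776597-18776896 (plus strand) for Cldn5, chr5:147725962-147726261 (minus strand) for Flt1, chr15:75048614-75048913 (minus strand) for Ly6c1 and chr6:141856171-141856470 (minus strand) for Slco1a4.
Cldn5: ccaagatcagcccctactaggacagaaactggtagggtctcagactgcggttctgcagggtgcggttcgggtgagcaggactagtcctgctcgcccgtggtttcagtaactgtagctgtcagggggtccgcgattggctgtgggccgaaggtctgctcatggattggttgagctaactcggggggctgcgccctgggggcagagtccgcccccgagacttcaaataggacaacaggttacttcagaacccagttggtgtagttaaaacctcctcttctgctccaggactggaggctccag
Flt1: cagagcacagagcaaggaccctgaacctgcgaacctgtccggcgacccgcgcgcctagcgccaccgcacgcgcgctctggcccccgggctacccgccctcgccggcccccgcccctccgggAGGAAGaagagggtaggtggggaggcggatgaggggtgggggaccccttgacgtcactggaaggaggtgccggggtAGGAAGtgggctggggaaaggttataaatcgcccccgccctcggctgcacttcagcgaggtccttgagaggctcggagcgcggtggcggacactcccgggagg
Ly6c1: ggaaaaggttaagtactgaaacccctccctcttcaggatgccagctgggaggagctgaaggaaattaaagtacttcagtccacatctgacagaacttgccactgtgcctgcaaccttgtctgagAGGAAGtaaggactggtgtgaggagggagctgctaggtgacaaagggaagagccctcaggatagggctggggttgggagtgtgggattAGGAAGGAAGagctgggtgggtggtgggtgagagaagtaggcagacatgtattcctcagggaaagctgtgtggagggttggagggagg
Slco1a4: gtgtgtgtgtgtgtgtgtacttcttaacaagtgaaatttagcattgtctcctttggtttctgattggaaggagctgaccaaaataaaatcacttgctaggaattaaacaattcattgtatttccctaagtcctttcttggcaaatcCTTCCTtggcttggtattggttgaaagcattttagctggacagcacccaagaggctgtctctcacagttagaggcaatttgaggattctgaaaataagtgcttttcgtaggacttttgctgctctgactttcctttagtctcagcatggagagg
AGGAAG, on either strand, was found in 4 of the 8 windows of the 9 genes (Abcb1a, Flt1, Slco1a4 and 1 of 2 Ly6c1 windows) and in 35.4% of the 32851 windows in the table. The RefSeq window of Abcb1a, chr5:8566841-8567140, lies far upstream of the GENCODE position of the gene, so the annotations place its start differently. The second Ly6c1 window, chr15:75048788-75049087 (minus strand), is not printed and holds no match. Its annotated start lies close to the GENCODE start of Ly6c1, whereas that of the printed Ly6c1 window lies inside the gene. A GATA core, AGATAA on either strand, was found only in the Tek window and in 11.2% of all windows. A TCF/LEF core, CTTTGAT on either strand, the kind of site through which Wnt signals act, was in none of the 8 windows and in 3.73% of all.

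On GRCm38 (GENCODE M21, used here for lengths and positions), the junction genes Cldn5, Pecam1 and Cdh5 lie at chr16:18776847-18778262 (plus), chr11:106654217-106750628 (minus) and chr8:104101625-104144511 (plus). The receptor genes Flt1, Kdr and Tek lie at chr5:147561604-147726011 (minus), chr5:75932827-75978458 (minus) and chr4:94739289-94874976 (plus). Abcb1a is at chr5:8660077-8748575 (plus), Slco1a4 at chr6:141805440-141856199 (minus) and Ly6c1 at chr15:75044018-75048830 (minus). All 9 are protein-coding, and values count reads over their exons. Abcb1a exons overlap the antisense gene Gm42686, which libraries without strand information do not separate. Abcb1a has a related neighbour in Abcb1b, Ly6c1 in Ly6c2, and Slco1a4 in Slco1a1, Slco1a5 and Slco1a6. How alike these genes are in sequence was not examined. Counts of Abcb1a, Ly6c1 and Slco1a4 are uncertain to the extent that reads were shared.

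In the total lysates, which hold RNA of every cell of the tissue, all 9 genes were counted in all 75 libraries. Their summed level lay between 88.8 and 221 CPM, with a median of 135 CPM. Per kilobase of exon, Ly6c1 was the highest, at a median of 24.5 CPM per kb, followed by Cldn5 at 15.9 CPM per kb and Slco1a4 at 4.64 CPM per kb. Tek followed at a median of 2.31 CPM per kb, then Pecam1 at 1.25, Abcb1a at 0.892 and Flt1 at 0.667 CPM per kb. Kdr, at a median of 0.373 CPM per kb, and Cdh5, at 0.334 CPM per kb, were the lowest. The order held in most libraries at most steps: Ly6c1 exceeded Cldn5 in 65 of 75 lysates, Cldn5 exceeded Slco1a4 in 65 and Slco1a4 exceeded Tek in 75. Pecam1 exceeded Abcb1a in only 50 of 75 lysates and Kdr exceeded Cdh5 in 42, so these neighbours do not differ beyond the spread between libraries. The order of genes of close levels also depends on the length used. For Flt1 the merged exons span 13504 bases and the longest transcript 6895.

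Within the lysates, levels in CPM were not even across the 18 groups of line, set and condition. Mean Cldn5 ran from 9.84 ± 4.70 CPM in Sst shock lysates at 60 min (SD, n = 4) to 44.1 ± 10.8 CPM in Pvalb home cage lysates at 15 min (SD, n = 3). Mean Slco1a4 ran from 23.4 ± 7.94 CPM in Pvalb shock lysates at 60 min (SD, n = 6) to 62.6 ± 47.2 CPM in Sst home cage lysates at 60 min (SD, n = 5). Slco1a4 and Cldn5 thus spanned wider ranges than Ly6c1, whose group means lay between 30.7 ± 1.33 CPM in Pvalb home cage lysates at 15 min (SD, n = 3) and 49.7 ± 14.1 CPM in Sst home cage lysates at 15 min (SD, n = 4).

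**Figure D1:**
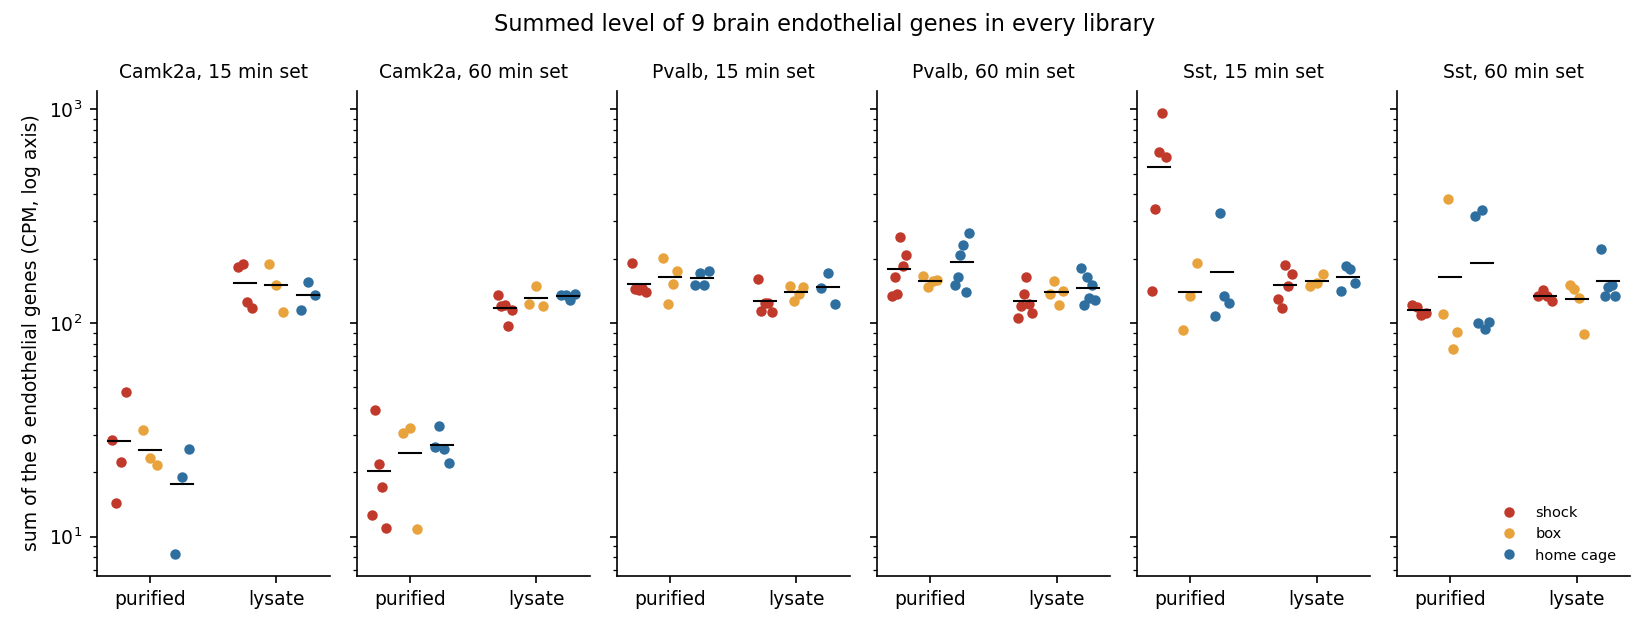
Summed level of the 9 endothelial genes (CPM, log axis) in every library, by line and time set, with purified libraries left of lysates; points are libraries coloured by condition and bars are group means. Purified Camk2a libraries lie between 8.33 and 47.4 CPM, below every lysate, while purified Pvalb libraries have higher medians than their lysates (151 against 132 CPM at 15 min, 164 against 134 CPM at 60 min) and purified Sst libraries lie on both sides of theirs (medians 167 against 153 CPM at 15 min, 110 against 134 CPM at 60 min).

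The first question was whether a shock or a new context changed these genes in the whole tissue. In lysates no endothelial gene passed the test at either time. Shock over home cage gave 0 of 9 genes at an adjusted p under 0.05 in edgeR's quasi-likelihood test at 15 min, where 0.114% of all genes were called, and 0 of 9 at 60 min, where 0% were called. Box over home cage gave 0 of 9 at both times (0.012% and 0% of all genes called), as did shock over box (0% of all genes at both times). DESeq2 also called 0 of 9 in each of the 6 comparisons. At an unadjusted p under 0.05, 1 gene was counted for shock over home cage at 15 min, 2 at 60 min and 0 in the other 4 comparisons.

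The gene with an unadjusted p under 0.05 at both times was Cldn5, the tight junction claudin. At 15 min, Cldn5 was at 9.997 to 37.2 CPM (median 23.9) in 14 shock lysates, against 11.2 to 50.9 CPM (median 31.2) in 10 home cage lysates. The ranges overlapped almost fully, and with line in the model the difference was -0.31 ± 0.14 log2 (SE, adjusted p = 0.802 in edgeR). At 60 min, Cldn5 was at 4.44 to 28.8 CPM (median 16.3) in 15 shock lysates, against 4.90 to 40.7 CPM (median 25.6) in 15 home cage lysates, a difference of -0.41 ± 0.20 log2 (SE, adjusted p = 0.9998 in edgeR). The VEGF receptor Flt1 averaged 8.02 ± 2.25 CPM in shock lysates and 9.81 ± 2.37 CPM in home cage lysates at 60 min (SD, n = 15 each), a difference of -0.27 ± 0.13 log2 (SE) that missed the threshold after adjustment too.

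Over the 9 genes, the median difference of shock over home cage was -0.14 log2 at 15 min and -0.13 at 60 min, beside 0.00 and -0.02 over all genes tested. Shock over box gave medians of -0.10 and -0.18, beside -0.02 and -0.02, and box over home cage gave -0.04 and -0.01, beside 0.01 and -0.00. The difference of the 2 shock responses, 60 min minus 15 min, was tested in 1 model and gave 0 of 9 genes, with 0.0349% of all genes called, 0 of 9 in DESeq2 and 0 of 9 at an unadjusted p under 0.05. None of the 34 other endothelial genes, the pericyte and smooth muscle markers, or the ligands and Wnt genes passed the test for shock over home cage in lysates at either time.

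**Figure D2:**
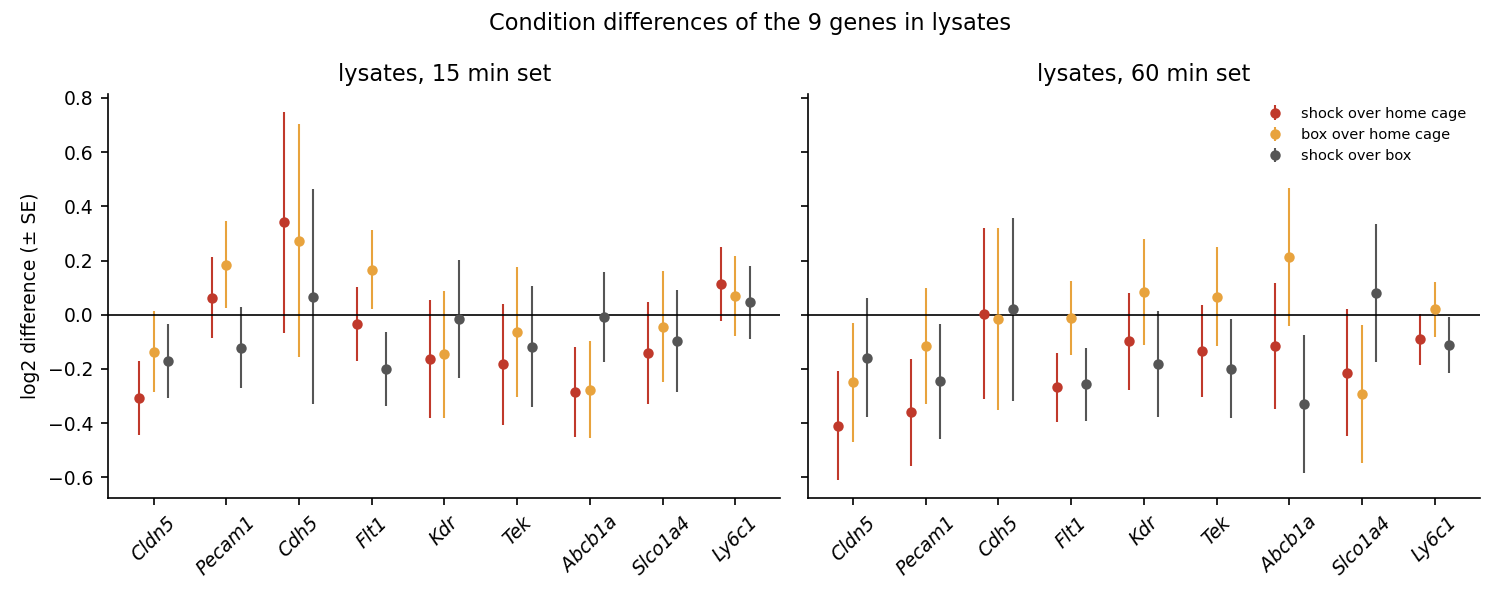
Condition differences of the 9 genes in lysates (log2, points with SE bars), at 15 min and 60 min, from edgeR models with line as a term. No point belongs to a gene that passed the test, and Cldn5 shock over home cage lies at -0.31 and -0.41.

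Purification set the 3 lines apart. RNA purified from Camk2a neurons held far less endothelial RNA than the lysate, whereas RNA purified from Pvalb and Sst neurons held more of some genes and less of others. The summed level was 8.33 to 47.4 CPM (median 22.8) in 10 purified Camk2a libraries at 15 min, against 112 to 189 CPM (median 143) in 10 lysates. At 60 min it was 10.8 to 39.3 CPM (median 23.9) in 12 purified Camk2a libraries, against 96.9 to 149 CPM (median 125) in 12 lysates. The groups did not overlap at either time. In Pvalb mice the summed level was 123 to 202 CPM (median 151) in 13 purified libraries, against 113 to 172 CPM (median 132) in 12 lysates at 15 min, and 134 to 264 CPM (median 164) in 16 purified libraries, against 105 to 182 CPM (median 134) in 16 lysates at 60 min. These ranges overlapped. In Sst mice the purified libraries spread widely, from 93.0 to 966 CPM (median 167) in 12 libraries at 15 min, against 117 to 187 CPM (median 153) in 12 lysates, and from 75.4 to 380.5 CPM (median 110) in 13 libraries at 60 min, against 88.8 to 221 CPM (median 134) in 13 lysates.

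In the Camk2a line, 8 of 9 genes fell in purified RNA at both times; 27.8% of all genes were called lower at 15 min and 35.3% at 60 min. The median of the 9 genes was -2.33 log2 at 15 min and -2.38 at 60 min, beside -0.14 and -0.26 over all genes. Cldn5 was at 1.60 to 5.05 CPM (median 2.68) in 10 purified libraries at 15 min, against 9.997 to 24.2 CPM (median 15.4) in 10 lysates. The groups did not overlap, and the fall was -2.25 ± 0.22 log2 (SE, adjusted p = 3.71e-08 in edgeR). Pecam1, the platelet and endothelial adhesion molecule, fell by 2.98 ± 0.58 log2 at 15 min and by 2.77 ± 0.55 log2 at 60 min (SE). Cdh5 had 0 to 4.87 CPM (median 0.462) in purified libraries at 15 min, against 0.597 to 5.74 CPM (median 1.76) in lysates. Its differences, -0.99 ± 0.71 log2 at 15 min and -0.89 ± 0.72 log2 at 60 min (SE), missed the threshold, with adjusted p-values of 0.256 and 0.299 in edgeR.

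Of the receptors, Flt1 fell by 2.33 ± 0.39 log2 at 15 min and by 2.14 ± 0.37 log2 at 60 min (SE). Kdr, the main signalling receptor for VEGF, was listed at 0 in 6 of 10 purified Camk2a libraries at 15 min and in 9 of 12 at 60 min, with no purified library above 0.925 CPM, against 1.84 to 6.46 CPM in lysates at 15 min and 1.53 to 4.51 CPM at 60 min. Mean Kdr in purified libraries at 15 min was 0.0595 of the lysate mean, and the fitted fold of this gene depends on the prior count of the model, so its size is not used. Tek ran from 0.0750 to 33.2 CPM (median 2.88) in purified libraries at 15 min, against 6.34 to 21.2 CPM (median 14.3) in lysates. A single purified shock library held the value of 33.2 CPM and the other 9 lay lower. The fall of Tek at 15 min, -1.69 ± 0.67 log2 (SE, adjusted p = 0.0435 in edgeR), lost its call in 7 of 10 fits that each left out 1 replicate (the purified and lysate library of the same number). Over these fits the difference ran from -2.60 to -1.46 log2, with adjusted p-values from 0.00440 to 0.129 in edgeR. The call was kept without the replicate that held 33.2 CPM. At 60 min Tek fell by 3.06 ± 0.72 log2 (SE), and none of the 8 calls of that set was lost in 12 such fits.

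Kdr aside, the transporter Slco1a4 had the largest fall of the 9 genes at both times. It was at 0 to 6.53 CPM (median 1.75) in purified Camk2a libraries at 15 min, against 22.4 to 68.6 CPM (median 41.4) in lysates. The groups lay far apart, with a fall of -4.06 ± 0.62 log2 (SE, adjusted p = 3.25e-05 in edgeR) at 15 min and -3.85 ± 0.57 log2 (SE) at 60 min. Abcb1a fell by 3.07 ± 0.52 log2 at 15 min and by 2.38 ± 0.64 log2 at 60 min (SE), when its ranges overlapped, at 0 to 2.11 CPM in purified libraries, against 1.51 to 9.57 CPM in lysates. Ly6c1 was at 1.99 to 20.6 CPM (median 9.65) in purified libraries at 15 min, against 29.1 to 63.7 CPM (median 39.8) in lysates, without overlap, a fall of -1.82 ± 0.29 log2 (SE, adjusted p = 3.46e-05 in edgeR).

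Most other vascular genes of the Camk2a line fell too. Of 29 other endothelial genes tested at 15 min, 19 fell and 1 rose (median -1.59 log2), and of 34 tested at 60 min, 30 fell and 1 rose (median -2.10). Over all genes 27.8% were called lower at 15 min and 35.3% at 60 min. At 15 min Itm2a, a membrane protein of brain endothelium, fell by 2.004 ± 0.144 log2, and Slc2a1, the glucose transporter of the barrier, by 1.41 ± 0.19 log2 (SE). All 14 pericyte and smooth muscle markers, all 10 astrocyte, all 9 oligodendrocyte and all 10 microglia markers also fell, at both times. The summed pericyte markers were at 8.27 to 31.3 CPM in purified libraries at 15 min, against 70.6 to 124 CPM in lysates. Among the VEGF and angiopoietin ligands and co-receptors, 5 of 12 fell and 3 rose at 15 min, beside 27.8% of all genes called lower. The share of all genes called higher in the Camk2a line is not given here, so the rises in these lists have no background. Vegfa, the chief VEGF ligand, fell by 1.56 ± 0.32 log2 (SE), while Nrp1, a co-receptor that neurons also make, rose by 0.57 ± 0.10 log2 (SE). Of the genes of Wnt signalling to brain endothelium, 6 of 12 fell at 15 min and 10 of 13 at 60 min, none rose, and Tspan12, a partner of the Norrin receptor, fell by 1.70 ± 0.15 log2 (SE) at 15 min.

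In the Pvalb line the genes moved in both directions. Ly6c1 and Cdh5 rose in purified RNA at both times and Kdr fell at both, while Cldn5 rose at 15 min and Slco1a4 fell at 60 min. At 15 min, 3 of 9 genes rose, beside 21.3% of all genes, and 1 fell, beside 24.3%. At 60 min, 4 rose, beside 28% of all genes, and 2 fell, beside 32.4%, so the shares of the 9 genes called were near those of the background. The median of the 9 was 0.27 log2 at 15 min and 0.46 at 60 min, beside -0.15 and -0.13 over all genes.

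Ly6c1 was at 36.5 to 81.7 CPM (median 57.8) in 13 purified Pvalb libraries at 15 min, against 29.1 to 47.1 CPM (median 32.8) in 12 lysates. At 60 min it was at 67.6 to 155 CPM (median 80.0) in 16 purified libraries, against 32.8 to 62.0 CPM (median 42.0) in 16 lysates. At 60 min every purified library was above every lysate. The rise was 1.004 ± 0.134 log2 (SE, adjusted p = 1.25e-06 in edgeR) at 15 min and 1.39 ± 0.11 log2 (SE, adjusted p = 7.4e-13 in edgeR) at 60 min. Its close copy Ly6c2 averaged 0.0314 CPM in purified libraries and 0.0848 CPM in lysates at 60 min. Cdh5 was at 1.75 to 6.67 CPM (median 3.07) in purified libraries at 60 min, against 0.687 to 4.30 CPM (median 1.59) in lysates. The ranges overlapped, and the rise was 1.15 ± 0.27 log2 (SE, adjusted p = 0.000391 in edgeR). At 15 min its rise of 1.18 ± 0.48 log2 (SE, adjusted p = 0.0463 in edgeR) was lost in 10 of 14 fits without 1 replicate, with adjusted p-values up to 0.223.

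Cldn5 averaged 44.5 ± 10.9 CPM in purified Pvalb libraries at 15 min and 35.3 ± 9.46 CPM in lysates (SD, n = 13 and 12), a rise of 0.52 ± 0.13 log2 (SE, adjusted p = 0.00246 in edgeR); at 60 min its difference of 0.30 ± 0.14 log2 missed the threshold (adjusted p = 0.0688 in edgeR). Flt1 rose by 0.46 ± 0.16 log2 and Tek by 0.47 ± 0.19 log2 at 60 min (SE), the call of Tek being lost in 4 of 18 fits without 1 replicate, with adjusted p-values up to 0.0957. Kdr fell by 0.98 ± 0.32 log2 at 60 min and by 1.68 ± 0.66 log2 at 15 min (SE), where the call was lost in 8 of 14 such fits, with adjusted p-values up to 0.0869. Slco1a4 was at 7.35 to 29.9 CPM (median 15.7) in purified libraries at 60 min, against 13.2 to 63.9 CPM (median 25.7) in lysates, a fall of -0.55 ± 0.17 log2 (SE, adjusted p = 0.00539 in edgeR). Pecam1 and Abcb1a passed the test at neither time.

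In the other vascular lists of the Pvalb line, falls outnumbered rises, as they did over all genes. Of 34 other endothelial genes, 2 rose and 6 fell at 15 min and 5 rose and 10 fell at 60 min, with medians of -0.31 and -0.14 log2. Over all genes 21.3% rose and 24.3% fell at 15 min, and 28% rose and 32.4% fell at 60 min. The endothelial counts lay near or below these shares. The 4 with the smallest p at 60 min all fell: the lipid transporter Mfsd2a (-1.49 ± 0.16 log2, SE), the sialomucin Cd34 (-1.06 ± 0.12), Egfl7 (-0.69 ± 0.11) and the TGF-beta co-receptor Eng (-1.11 ± 0.18). Of 14 pericyte and smooth muscle markers 6 fell and 1 rose at 60 min. Pdgfrb, the pericyte receptor for PDGF, fell by 1.88 ± 0.18 log2, while the smooth muscle actin Acta2 rose by 1.40 ± 0.22 log2 (SE). All 10 astrocyte and all 10 microglia markers fell at 60 min, the summed microglia markers being at 84.2 to 191 CPM in purified libraries, against 532 to 724 CPM in lysates. Of the ligands, Vegfb and Pgf rose by 0.80 ± 0.08 and 1.18 ± 0.13 log2 at 60 min (SE), and of 13 Wnt genes 7 fell and 2 rose, among them Wnt7b, a Wnt ligand made by neurons, at -1.82 ± 0.13 log2 (SE).

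**Figure D3:**
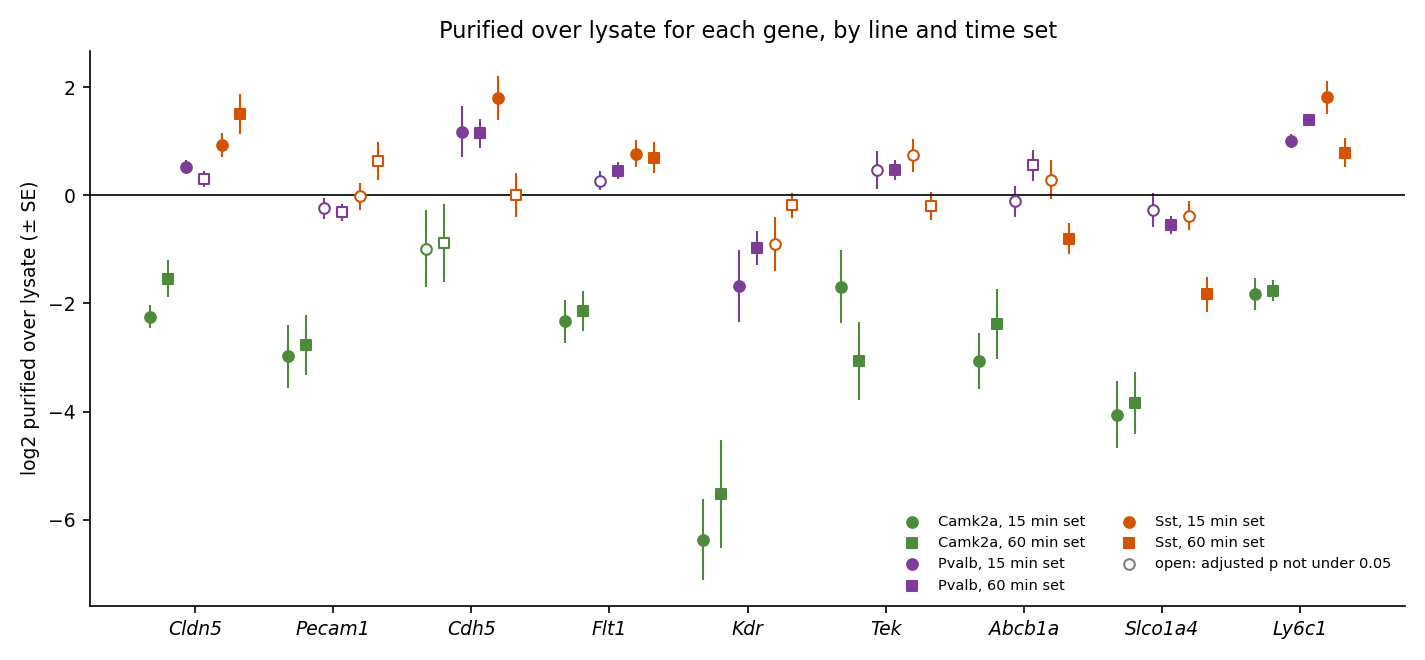
Purified-over-lysate difference of each gene (log2, points with SE bars) by line and time set; filled symbols passed an adjusted p of 0.05 and open ones did not. The Camk2a points lie below 0 for all 9 genes, the Ly6c1 points of the Pvalb and Sst lines lie between 0.79 and 1.81, and the 2 Camk2a values of Kdr depend on the prior count.

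In the Sst line at 15 min, Cldn5, Cdh5, Flt1 and Ly6c1 rose in purified RNA (4 of 9 genes, beside 23.6% of all genes) and none fell (beside 21%). The median of the 9 was 0.74 log2, beside -0.05. Ly6c1 was at 30.7 to 575 CPM (median 79.6) in 12 purified libraries, against 33.2 to 68.7 CPM (median 41.4) in 12 lysates. The 3 highest purified values were in shock libraries, and the rise was 1.81 ± 0.31 log2 (SE, adjusted p = 5.24e-05 in edgeR). The rises of Cldn5, Cdh5 and Flt1 were 0.92 ± 0.22, 1.79 ± 0.41 and 0.77 ± 0.25 log2 (SE). Without the 4 shock libraries high in microglia markers, Ly6c1 still rose by 1.09 log2 (adjusted p = 0.00623 in edgeR), Slco1a4 fell by 1.13 log2, and Cldn5 (0.44 log2), Cdh5 (1.13) and Flt1 (0.42) missed the threshold. The call of Flt1 was also lost without box replicate 2 (adjusted p = 0.0698 in edgeR). Without the 4 libraries low in Sst, Flt1 (0.22 log2) alone lost its call, and without either kind of library Cldn5 (0.52), Cdh5 (1.29) and Ly6c1 (0.88) rose and Slco1a4 fell by 1.26 log2.

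At 60 min, Cldn5, Flt1 and Ly6c1 rose in purified Sst RNA (3 of 9 genes, beside 31.2%), and Abcb1a and Slco1a4 fell (2 of 9, beside 28.2%); the median of the 9 was 0.00 log2, beside 0.11. Cldn5 was at 14.7 to 90.4 CPM (median 25.6) in 13 purified libraries, against 4.44 to 30.0 CPM (median 9.19) in 13 lysates, a rise of 1.501 ± 0.363 log2 (SE, adjusted p = 0.00119 in edgeR). Slco1a4 was at 5.27 to 37.8 CPM (median 16.9) in purified libraries, against 18.9 to 136 CPM (median 47.8) in lysates, a fall of -1.83 ± 0.32 log2 (SE, adjusted p = 6.14e-05 in edgeR). Relative to the median of genes of like GC content, these 2 differences were 0.43 log2 for Cldn5 and -0.58 for Slco1a4, where the GC slope, the regression of the log2 difference on transcript GC content over all genes, was 1.21 log2 per 10 percentage points. The rises of Flt1 (0.69 ± 0.29 log2) and Ly6c1 (0.79 ± 0.27) and the fall of Abcb1a (-0.80 ± 0.28) were smaller (SE). The call of Flt1 was lost in 8 of 13 fits without 1 replicate, that of Abcb1a in 2 and that of Ly6c1 in 1, which left out box replicate 2. Without the 3 libraries high in microglia markers, Cldn5 rose by 0.85 log2 and Slco1a4 fell by 2.09 log2, both still called, and Ly6c1 (0.14 log2) and Flt1 (0.03) were not. Without the 5 libraries low in Sst, Cldn5 (1.39 log2), Ly6c1 (0.96) and Slco1a4 (-1.89) kept their calls and Flt1 (0.54) and Abcb1a (-0.69) did not. Without either kind only Slco1a4 (-2.22) and Abcb1a (-1.48) were called, with Cldn5 at 0.56 log2.

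Other endothelial genes of the Sst line also moved in both directions, with 5 of 34 higher and 2 lower at 15 min and 12 higher and 8 lower at 60 min. Over all genes 23.6% were higher and 21% lower at 15 min, and 31.2% higher and 28.2% lower at 60 min. Gkn3 and Pglyrp1 rose by 1.44 ± 0.30 and 1.47 ± 0.31 log2 at 15 min (SE), while the tight junction protein Ocln fell by 1.51 ± 0.33 log2 (SE). At 60 min Egfl7 rose by 1.33 ± 0.24 log2 and Itm2a fell by 2.03 ± 0.29 log2 (SE). Pericyte and smooth muscle markers gave 0 higher and 2 lower of 14 at 15 min and 3 higher and 2 lower at 60 min, and microglia markers gave 0 higher and 2 lower of 10 at 15 min and 5 higher and 1 lower at 60 min. Abcb1b, the close copy of Abcb1a, passed the test at 60 min in purified Sst RNA too, with a fall of -1.004 log2 (adjusted p = 0.000297 in edgeR).

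The differences between lines were tested in 1 model per time set. Purified over lysate was higher in the Pvalb than in the Camk2a line for all 9 genes at 15 min, beside 19.1% of all genes, and for all 9 at 60 min, beside 32.3%, with medians of 2.79 and 2.99 log2 beside 0.12 and 0.38 over all genes. Ly6c1 differed by 2.84 ± 0.38 log2 at 15 min and by 3.20 ± 0.27 log2 at 60 min (SE). The Sst line was above the Camk2a line for all 9 genes at 15 min, beside 15.1%, and for 8 at 60 min, beside 33.1%, where Cdh5 was not called (0.77 ± 0.66 log2, SE, adjusted p = 0.344 in edgeR). Ly6c1 differed by 3.58 ± 0.38 and 2.42 ± 0.28 log2 (SE). Leaving out 1 replicate number of every group at a time gave 7 to 9 genes called for Pvalb over Camk2a at 15 min, 9 at 60 min, and 7 to 9 for Sst over Camk2a at both times, and leaving out the Sst libraries high in microglia markers gave 7 at both times. Markers of other cells moved with these differences: of 10 astrocyte markers 9 were higher in Pvalb than in Camk2a at 15 min and 10 at 60 min, and of 14 pericyte and smooth muscle markers 9 and 12 were; their part in the result was not tested.

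Between the Sst and Pvalb lines few of the 9 genes were called. At 15 min 0 of 9 genes differed in edgeR, with 7.24% of all genes called, 0 of 9 in DESeq2 and 1 at an unadjusted p under 0.05, Ly6c1 at 0.74 log2. At 60 min, Cldn5 was higher in the Sst line by 1.06 ± 0.38 log2 (1 of 9 higher, beside 30.6%), and Abcb1a, Ly6c1 and Slco1a4 were lower, at -1.54 ± 0.55, -0.77 ± 0.25 and -1.46 ± 0.47 log2 (3 of 9 lower, beside 29.9%; SE). Slco1a4 kept its call without the Sst libraries low in Sst (-1.44 log2), whereas Cldn5 (1.01 log2), Abcb1a (-1.35) and Ly6c1 (-0.52) did not. Calls were lost without 1 replicate number in 2 of 6 fits for Cldn5 and in 1 of 6 for Ly6c1, with adjusted p-values up to 0.0923 and 0.0853. The GC slope of this comparison was 1.46 log2 per 10 percentage points. Relative to the median of genes of like GC content Cldn5 stood at -0.39 log2, Slco1a4 at 0.08, Abcb1a at -0.74 and Ly6c1 at -0.78.

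Between time sets, the purified-over-lysate difference of the 60 min set minus that of the 15 min set gave 0 of 9 genes in the Camk2a line (0.565% of all genes called) and 0 of 9 in the Pvalb line (0.229%), in edgeR and in DESeq2. In the Sst line Cdh5 (-1.79 ± 0.58 log2), Ly6c1 (-0.96 ± 0.41) and Slco1a4 (-1.42 ± 0.43) were lower at 60 min (SE), where 48.4% of all genes differed, 21.8% being lower. Without 1 replicate number of every group Ly6c1 lost its call in 3 of 5 fits and Cdh5 and Slco1a4 in 1 of 5 each, with adjusted p-values up to 0.164, 0.0715 and 0.0729. Without the purified Sst libraries high in microglia markers only Ly6c1 kept its call (-0.96 log2, adjusted p = 0.0173 in edgeR), with Cdh5 at -1.54 and Slco1a4 at -1.02 log2. Without those low in Sst, which takes the shock group out of both sets, none of the 9 was called, with Cdh5 at -1.42, Slco1a4 at -0.82 and Ly6c1 at 0.10 log2. The GC slope of the Sst comparison was 1.15 log2 per 10 percentage points, and relative to genes of like GC content Slco1a4 stood at -0.25 log2, Ly6c1 at -1.19 and Cdh5 at -2.41.

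The lysates themselves differed between lines and sets, each of which is 1 table of libraries, so that line, set and library preparation cannot be told apart. Pvalb over Camk2a lysates at 15 min gave 5 of 9 genes, beside 58.1% of all genes: Cldn5 was higher by 1.003 ± 0.146 log2 and Pecam1 by 0.40 ± 0.16, and Abcb1a, Ly6c1 and Slco1a4 were lower, at -0.99 ± 0.18, -0.48 ± 0.14 and -0.84 ± 0.21 log2 (SE). At 60 min the same comparison gave 0 of 9 in edgeR and in DESeq2 (0.126% of all genes), with 1 at an unadjusted p under 0.05, Kdr. Sst over Camk2a lysates gave 3 of 9 at 15 min (beside 54.4%) and 1 of 9 at 60 min (beside 43.1%), and Sst over Pvalb lysates 2 of 9 at 15 min (beside 17.5%) and 3 of 9 at 60 min (beside 51.1%). Slco1a4 was higher in Sst lysates at 60 min by 1.35 ± 0.27 log2 against Camk2a and by 1.22 ± 0.25 against Pvalb, while Cldn5 was lower than in Pvalb lysates, at -0.82 ± 0.22 log2 (SE). The 60 min over the 15 min lysates gave Tek, Abcb1a and Slco1a4 lower in the Camk2a line (3 of 9, beside 55%), Cldn5 lower in the Pvalb line (1 of 9, beside 1.18%), and Cldn5 and Pecam1 lower with Slco1a4 higher in the Sst line (3 of 9, beside 35.1%). In the Sst line at 60 min, 3 lysates of over 250000000 counts (box 1, home cage 4 and 5) stood apart, with Cldn5 at 27.04 to 29.97 CPM, against 4.44 to 15.9 CPM in the other 10. Without libraries of that depth the Sst set comparison called 5 genes, with Cldn5 at -1.43, Pecam1 at -1.24, Flt1 at -0.41, Cdh5 at 0.87 and Slco1a4 at 1.15 log2, and Sst over Camk2a at 60 min called 4. Several of these calls rested on single replicates: without 1 replicate number the Sst set gave 0 to 3 and Sst over Pvalb at 15 min gave 0 to 2.

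In several of these comparisons Cldn5 and Slco1a4 differed in opposite directions, and their transcripts sit at the ends of the range of GC content of the 9 genes, 60.5% for Cldn5 and 40.3% for Slco1a4. In each lysate the slope of log2 level on GC content over all genes, relative to the group mean, served as a measure of its tilt toward GC-rich genes, and it ran from -0.796 to 1.08 log2 per 10 percentage points. Over 75 lysates with group means removed, Cldn5 followed this slope with Pearson r = 0.854 and Spearman rho = 0.746, and Slco1a4 ran against it with r = -0.632 and rho = -0.642. Permutation tests gave an adjusted p of 4.5e-05 for each of these 4 values over 9 genes, from 1e-05, the smallest that 100000 permutations can give. Without the 2 lysates farthest from the median slope, r was 0.812 for Cldn5 and -0.586 for Slco1a4. Pecam1 (r = 0.658), Ly6c1 (0.431), Flt1 (0.413) and Kdr (0.340) followed the slope. Cdh5 (-0.487) and Abcb1a (-0.464) ran against it, and Tek (-0.173) gave an adjusted permutation p of 0.127. The r values did not follow GC content throughout. Cdh5 had 52.2% GC, next after Cldn5, while Flt1, Pecam1, Ly6c1 and Kdr had 50.5%, 50.2%, 49.6% and 49.4%. Tek and Abcb1a had 47.1% and 45.2%. Spearman's rho of Flt1 (0.249) and of Tek (-0.243) gave adjusted permutation p-values of 0.0672 and 0.0599.

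**Figure D4:**
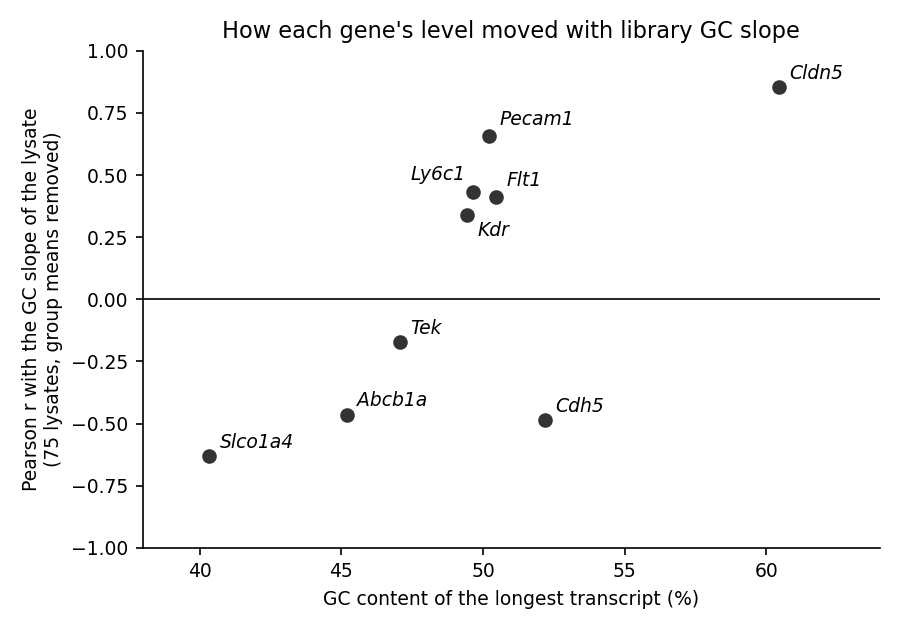
Pearson r between each gene's lysate level and the GC slope of the library, over 75 lysates with group means removed, against the GC content of the longest transcript of the gene (%). Cldn5, at 60.5% GC, has the highest r, 0.854, and Slco1a4, at 40.3% GC, the lowest, -0.632. Cdh5, next to Cldn5 in GC content at 52.2%, has an r of -0.487.

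The same slope can be set beside each comparison. For purified over lysate it was 0.25 log2 per 10 percentage points in the Camk2a line at 15 min, -0.28 in the Pvalb line at 60 min and 0.02 in the Sst line at 15 min, beside 1.21 in the Sst line at 60 min. In the last of these, relative to genes of like GC content, Ly6c1 stood at 0.69 log2 and Abcb1a at -0.21. In the Pvalb line at 60 min Ly6c1 stood at 1.47 and Cldn5 at 0.78 by the same measure, and in the Camk2a line at 15 min Slco1a4 stood at -3.73 and Cldn5 at -2.18. The part of GC content in any of these differences was not tested.

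Within purified libraries, conditions were compared per line and time set, and 2 of the 18 comparisons gave a call among the 9 genes, both of shock over home cage. In the Pvalb line at 60 min Cldn5 rose and Tek and Slco1a4 fell, 1 of 9 genes higher, beside 19.7% of all genes, and 2 lower, beside 15.3%. Cldn5 was at 14.7 to 49.6 CPM (median 37.8) in 6 shock libraries, against 13.1 to 26.05 CPM (median 19.8) in 6 home cage libraries. In shock mice 4 of 6 libraries, numbers 3 to 6, lay above every home cage library. These 4 had the lowest totals of both groups, 55234644 to 95998577 counts. Totals were 99612416 to 204139576 counts in home cage libraries, and 167434187 and 111935912 counts in shock libraries 1 and 2. The part of depth was not tested. The Cldn5 difference was 0.78 ± 0.26 log2 (SE, adjusted p = 0.0242 in edgeR). It was lost in 3 of 16 fits without 1 replicate, with adjusted p-values up to 0.0729. Tek was at 3.34 to 14.9 CPM (median 7.31) in shock libraries, against 9.44 to 24.3 CPM (median 18.4) in home cage libraries, a fall of -1.03 ± 0.32 log2 (SE, adjusted p = 0.0199 in edgeR). Slco1a4 was at 7.35 to 19.7 CPM (median 11.6) in shock libraries, against 9.26 to 29.9 CPM (median 22.7) in home cage libraries, a fall of -0.85 ± 0.26 log2 (SE, adjusted p = 0.0159 in edgeR).

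The 4 box libraries of this set overlapped both groups, with Cldn5 at 30.4, 16.5, 29.5 and 19.8 CPM and Tek at 16.9, 11.996, 8.81 and 11.5 CPM. Their totals, in the same order, were 103319811, 160549804, 81911459 and 170445807 counts. Neither shock over box nor box over home cage called any of the 9 genes (0% of all genes in both). The GC slope of shock over home cage was 0.834 log2 per 10 percentage points, and relative to genes of like GC content Cldn5 stood at -0.23 log2, Tek at -0.67 and Slco1a4 at -0.16. The shock response of Cldn5 differed between the fractions, purified minus lysate being 1.09 ± 0.32 log2 (SE, adjusted p = 0.0190 in edgeR, 1 of 9 genes, beside 13% called higher). This difference holds any change of the lysates as well as the purified rise. Its call was lost in 3 of 18 fits without 1 replicate (adjusted p up to 0.0597 in edgeR). It was also lost with the replicate block described below. Relative to genes of like GC content the difference stood at 0.14 log2. Other markers moved too, beside 19.7% of all genes higher and 15.3% lower. Of 34 other endothelial genes 10 rose and 7 fell, 3 of 10 microglia markers rose and 4 of 7 GABA neuron markers fell. Their part in the result was not tested.

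In purified Sst RNA at 15 min, Cldn5 rose after shock (1 of 9 genes, beside 1.11% of all genes called higher), and all 9 genes had a positive difference, with a median of 1.43 log2 beside -0.02 over all genes. Cldn5 was at 35.6, 71.7, 80.9, 208 and 120 CPM in shock libraries, at 14.0, 21.8 and 46.7 CPM in box libraries and at 24.2, 16.6, 15.7 and 24.0 CPM in home cage libraries. Every shock library was above every home cage library. The rise over home cage was 2.24 ± 0.47 log2 (SE, adjusted p = 0.0423 in edgeR) and was lost in 7 of 12 fits without 1 replicate, with adjusted p-values up to 0.123. Ly6c1 was at 61.6, 179, 333, 575 and 303 CPM in shock libraries, at 30.7, 41.6 and 94.8 CPM in box libraries and at 51.0, 239, 62.6 and 64.3 CPM in home cage libraries. Home cage library 2 overlapped the shock libraries, and Ly6c1 missed the threshold (1.33 ± 0.62 log2, SE). DESeq2 called 4 of 9 genes here, and 7 of 9 had an unadjusted p under 0.05 in edgeR. The shares of all genes that met these criteria were not counted, so these counts have no background to be set beside.

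Of the 5 shock libraries of this group, 4 are those high in microglia markers. In shock libraries 1 to 5 the summed 9 genes were at 141 (library 1), 340, 634, 966 and 601 CPM, the microglia markers at 76.5, 4379, 3374, 5977 and 5630 CPM, and Sst itself at 3745, 541, 338, 41.8 and 54.8 CPM. The 4 libraries with high endothelial sums are the 4 with high microglia levels, and each held less Sst than library 1, though only libraries 4 and 5 are among those whose Sst level lay within the lysates. All 10 microglia markers rose over home cage, with a median of 5.50 log2, and 0 of 5 perivascular macrophage markers were called, with a median of 4.45 log2. Without the 4 libraries, 1 shock library remained and the Cldn5 difference was 0.74 log2 (adjusted p = 0.809 in edgeR), that library being assumed to vary like the others. The shock response of purified minus lysate libraries gave Cldn5 at 2.42 ± 0.51 log2 (SE, adjusted p = 0.0159 in edgeR, 1 of 9, beside 1.4% called higher). This call was lost in 5 of 12 fits without 1 replicate (adjusted p up to 0.0723 in edgeR) and with the replicate block described below. Without the 4 libraries the response stood at 0.97 log2. The GC slope of shock over home cage was 0.658 log2 per 10 percentage points, and relative to genes of like GC content Cldn5 stood at 1.58 log2 and Abcb1a at 2.53. The part of the microglia-rich libraries beyond these values was not tested.

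**Figure D5:**
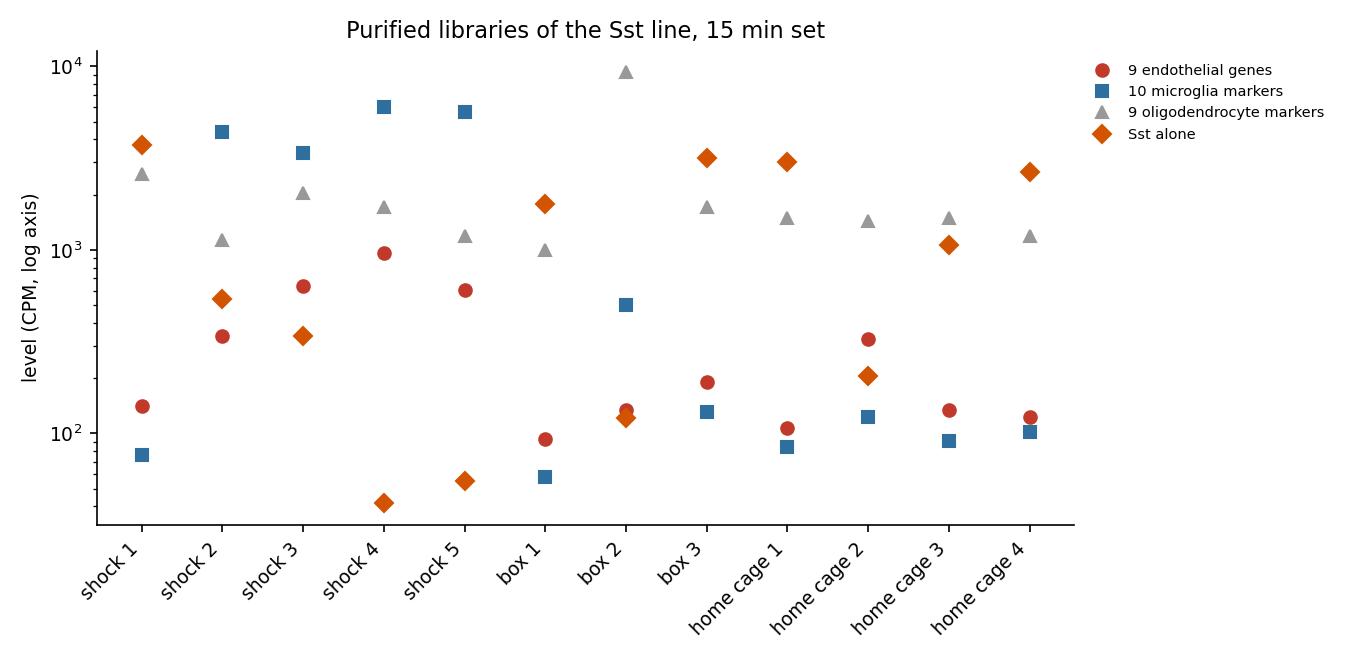
Summed level (CPM, log axis) of the 9 endothelial genes, 10 microglia markers and 9 oligodendrocyte markers, and the level of Sst, in each purified Sst library at 15 min, by condition. Shock libraries 2 to 5 hold 340 to 966 CPM of endothelial genes together with 3374 to 5977 CPM of microglia markers, and home cage library 2 holds 328 CPM of endothelial genes with 123 CPM of microglia markers.

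In the Sst line at 15 min, 1 purified library had a high endothelial sum without high microglia markers. Home cage library 2 of the Sst line at 15 min had 328 CPM of the 9 genes, 239 CPM of it Ly6c1, with microglia markers at 123 CPM and Sst at 205 CPM. In the Sst line at 60 min the 3 libraries high in microglia markers had 380.5, 318 and 338.5 CPM of the 9 genes, while the 4 shock libraries whose Sst level was within the lysates had 122, 119, 109 and 112 CPM. In the other 4 line and set combinations, and in the Sst line at 60 min, no condition comparison of purified libraries called any of the 9 genes in edgeR apart from those above; the shares of all genes called were 0% except for shock over home cage in the Camk2a line at 60 min (2.3%) and for shock over home cage (4.49%) and shock over box (8.18%) in the Sst line at 60 min. Kdr was too low to be tested in purified Camk2a libraries at 60 min. The shock response of purified minus lysate libraries called 0 of 9 genes in the other 4 combinations in edgeR (0.00638% of all genes in the Camk2a line at 15 min, 0.0415% in the Sst line at 60 min and 0% in the other two), where DESeq2 called 1, Kdr in the Camk2a line at 15 min, a gene with 0 counts in the 4 purified shock libraries there and 106, 60, 100 and 47 counts in the 4 shock lysates.

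The 9 genes varied together only loosely from library to library. Over 75 lysates, as residuals of log2 CPM from group means, 23 of 36 pairs had a Pearson r above 0, with a median of 0.164; the highest was Pecam1 with Flt1 at 0.689 and the lowest Cldn5 with Slco1a4 at -0.524. Flt1 had the highest r with the mean of the other 8, at 0.545, followed by Pecam1 at 0.451, and Cldn5 and Cdh5 were near 0, at 0.013 and 0.0065. The spread of residuals was smallest for Ly6c1, with an SD of 0.281 log2, and largest for Cdh5, at 0.772 log2. Over 76 purified libraries 30 of 36 pairs were above 0, with a median of 0.199, the highest Cldn5 with Ly6c1 at 0.604 and the lowest Flt1 with Cdh5 at -0.226. Libraries share tables, depth and base composition, so these values are descriptive.

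Ranked by Pearson r with the mean residual of the 9 genes over 75 lysates, the 8 most alike of 12692 other genes were Slc22a8 (0.632), Aldh1a2 (0.611), Sgms1 (0.593), Col1a2 (0.582), Emp3 (0.581), Pxk (0.570), Anxa2 (0.570) and Ifitm3 (0.567). None of these 8 was on the endothelial list, whose best placed gene was Vwf, the von Willebrand factor, at rank 21 with r = 0.529. Over 76 purified libraries the 8 most alike of 12378 genes were Ptrf (0.695), Rnase4 (0.676), Slc2a1 (0.655), Slc39a12 (0.624), Tgm2 (0.619), Itgb5 (0.611), Crip1 (0.601) and Vtn (0.593), of which Slc2a1 is an endothelial and Vtn a pericyte gene of the lists used here.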

How the data were processed

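PolyA RNA from RNeasy Mini extracts went into Nextera XT libraries, per the labels' protocols; such libraries carry no strand information. The genome build GRCm38 and the tools STAR 2.7.7a, featureCounts and DESeq2 are named, without their roles, per the submitters' processing notes; the counting annotation and the handling of reads with several matches are not given in the sources used here. The authors deposited 6 tables of raw counts per gene, 1 per line and time set, with 23366 gene symbols in the Camk2a 15 min table and 24391 in the others. Even numbers made up 67.6% to 76.2% of counts between 1 and 100 (64.7% to 80.6% for the 9 genes), so a count need not be a single fragment and counting intervals would be too narrow.

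Columns were matched to samples by name. Of 151 columns, 3 could be matched to a group only, and 2 samples were not analysed here. Of 257 pairs of libraries within groups, none agreed within sampling noise (smallest reduced chi-square 20.1). The series text states biological replicates.

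CPM used the sum of a library's deposited counts as its total, also per kilobase of merged exons of GENCODE M21. Tests used edgeR 4.0.16 (R 4.3.3) with filterByExpr, TMM scaling and the robust quasi-likelihood test on counts, with Benjamini-Hochberg adjustment over all genes tested and a threshold of 0.05. Log2 differences are on the TMM scale and CPM values are not. Purified over lysate used all libraries of 1 table, the mean of 3 purified groups minus that of 3 lysate groups. Lysate conditions used all lysates of a set with line as a term, and conditions in purified libraries were fitted per table. Replicate number was not a term in these fits, so their p-values are unpaired. Values with a replicate block are given with the alternatives. Correlations and likeness used log2 CPM with a prior count of 2 and group means removed, among genes of at least 1 CPM on average. GC content was taken from the longest transcript and was had for 96.5% of 13461 genes; genes of like GC content are those within 2 percentage points. Scripts were checked on simulated data. Also used were DESeq2 1.42.0, Python 3.11.15, numpy 2.4.6, pandas 2.3.3, scipy 1.17.1 and matplotlib 3.10.9.

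Replicate numbers were taken to pair purified and lysate libraries where the deviations of every pair from their group means correlated above 0.1, which held in the Camk2a 15 min table alone (10 pairs, 0.118 to 0.260); the pairing comes from the labels' numbers and this check. All 9 genes are named. Of other lists, up to 4 genes with the smallest p in the comparison described are named, together with the 8 genes most like the 9 and their close copies. The 9 genes and the lists were chosen with earlier results of these data known. Alternatives were DESeq2, RLE size factors, no filter on low counts, each condition alone, a replicate block and leaving out each replicate; those without the libraries of over 250000000 counts and without the Sst libraries that stand apart were chosen after seeing the data.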

Additional observations from a re-analysis of the deposited data

Results flagged for a closer look

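In 270 sets of values, each of 1 gene or the summed 9 genes in 1 group of 4 or more libraries, the highest or lowest library was tested for a gap to the others by Dixon's test at the 95% level, and 29 passed; chance alone passes about 5% of such sets. In purified Camk2a libraries, Tek was at 33.2 CPM in shock replicate 4 at 15 min (others 0.103 to 3.66). At 60 min, shock replicate 2 held 10.7 CPM of Cldn5 (others 0.931 to 2.97) and 17.4 CPM of Ly6c1 (6.12 to 8.13), shock replicate 3 held 2.67 CPM of Flt1 (0.504 to 1.07), and home cage replicate 2 held 1.95 CPM of Cdh5 (0.227 to 0.362).

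In the Pvalb line at 15 min, purified shock replicate 1 had a summed level of 191 CPM (others 139.7 to 146) and the lysate of the same number had 159.9 CPM (113 to 124), with Pecam1 at 11.1 CPM (6.51 to 7.08). Cdh5 was at 11.8 CPM in purified home cage replicate 4 (1.75 to 2.36) and at 6.32 CPM in purified shock replicate 5 (0.712 to 2.31). At 60 min, Cdh5 was at 6.67 CPM in purified home cage replicate 3 (2.93 to 4.10) and Cldn5 at 40.7 CPM in lysate home cage replicate 5 (24.7 to 28.1).

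In the Sst line at 15 min, purified home cage replicate 2 had a summed level of 328 CPM (others 108 to 134), with Ly6c1 at 239 CPM (51.0 to 64.3). In lysates of that set Pecam1 was at 16.4 CPM in home cage replicate 2 (7.96 to 9.30) and at 14.8 CPM in shock replicate 3 (9.02 to 10.5), and Cdh5 at 2.96 CPM in home cage replicate 4 (0.805 to 1.11). At 60 min, purified box replicate 2 stood above the others in 6 of the 9 genes: Cldn5 at 90.4 CPM (14.7 to 25.6), Pecam1 at 17.97 CPM (3.39 to 4.92), Flt1 at 28.7 CPM (4.90 to 8.15), Tek at 16.5 CPM (4.26 to 5.64), Abcb1a at 7.34 CPM (1.08 to 1.49) and Ly6c1 at 195 CPM (33.3 to 49.3), with a sum of 380.5 CPM (75.4 to 110). This library is also among those high in microglia markers. Purified shock replicate 2 was low in Cldn5, at 16.8 CPM (29.5 to 31.1), and high in Cdh5, at 3.97 CPM (0.880 to 1.02), and purified shock replicate 4 held 3.25 CPM of Abcb1a (1.76 to 1.91). In lysates, box replicate 1 held 11.5 CPM of Pecam1 (1.87 to 3.48), and home cage replicate 1 had a sum of 221 CPM (133 to 151).

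Tested differences between groups gave the following. Purified over lysate differed for 9 of 9 genes between Pvalb and Camk2a at 15 min and for 9 at 60 min, for 9 between Sst and Camk2a at 15 min and for 8 at 60 min, and for 4 between Sst and Pvalb at 60 min. The shock response of purified minus lysate libraries was 1.09 log2 for Cldn5 in the Pvalb line at 60 min and 2.42 log2 in the Sst line at 15 min. In the Sst line, the purified-over-lysate difference at 60 min minus that at 15 min was -1.79 log2 for Cdh5, -0.96 for Ly6c1 and -1.42 for Slco1a4.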

How the results depend on the processing

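Counts are of the 9 genes called, with the value of the report in brackets. Shares of all genes called were not counted for the alternatives, and what caused each shift was not tested. DESeq2 gave 3 for Sst over Camk2a lysates at 60 min (1), 2 for 60 over 15 min Pvalb lysates (1), 5 for the Sst time set difference in purified over lysate (3), 1 and 2 for the shock response of purified minus lysate in Camk2a (0) and Sst (1) at 15 min, and 4 and 2 for purified Sst at 15 min, shock over home cage (1) and over box (0). RLE size factors gave 3 for Sst over Camk2a lysates at 60 min and 5 for the Sst time set difference. No filter on low counts gave 5 for that difference and 1 for Sst over Pvalb lysates at 15 min (2). Purified over lysate, fitted within 1 condition, gave 4 in home cage for Camk2a at 15 min (8), 3 in box and 4 in home cage at 60 min (8), 2 in each condition for Pvalb at 15 min (4), 3 in box and 2 in shock at 60 min (6), 0 in box, 1 in home cage and 7 in shock for Sst at 15 min (4), and 1 in box, 1 in home cage and 3 in shock at 60 min (5).

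Every pair of same-numbered purified and lysate libraries correlated above 0.1 in the Camk2a 15 min table alone, and the replicate block moved no count there by over 1.5 times. Of the others, 9 of 12 pairs did in Camk2a at 60 min, 9 of 11 in Pvalb at 15 min, 5 of 14 at 60 min, 7 of 12 in Sst at 15 min and 6 of 13 at 60 min; purified libraries correlated best with their own number in 7, 9, 4, 6 and 4 of these, a hint from the data and not the design. There the block gave 2 for purified over lysate in Pvalb at 15 min (4) and 3 in Sst at 60 min (5). It gave 0 for the shock response of purified minus lysate in Pvalb at 60 min (1, with Cldn5 at 1.01 log2, adjusted p = 0.137 in edgeR). In Sst at 15 min it gave 0 too (1, with Cldn5 at 2.23 log2, adjusted p = 0.147 in edgeR). For conditions in purified libraries the block instead tied libraries of the same number across conditions, and so across mice. It left out unnumbered libraries. Such purified libraries correlated above 0.1 in 1 of 11 pairs in Pvalb at 60 min and in 4 of 10 in Sst at 15 min. With that block, shock over home cage in purified Sst at 15 min gave 0 (1, with Cldn5 at 1.89 log2, adjusted p = 0.113 in edgeR). Cldn5 in purified Pvalb at 60 min, shock over home cage, lost its call too (0.71 log2, adjusted p = 0.121 in edgeR).

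Of the alternatives chosen after seeing the data, leaving out libraries of over 250000000 counts gave 5 for 60 over 15 min Sst lysates (3) and 4 for Sst over Camk2a lysates at 60 min (1). Without the Sst libraries high in microglia markers, purified over lysate gave 2 at 15 min (4) and the Sst time set difference 1 (3). Without those low in Sst, purified over lysate gave 3 at 60 min (5), its Sst over Pvalb difference 1 (4) and its time set difference 0; without either kind the first was 2 and the last 0. All 3 exclusions gave 0 for both Sst shock results at 15 min (1 each). Without the Pvalb 15 min lysate of home cage that has no number, purified over lysate gave 2 (4).

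Leaving out 1 replicate gave 0 to 1 for 60 over 15 min lysates in Pvalb and 0 to 3 in Sst, 3 to 5 and 1 to 3 for Sst over Camk2a lysates at 15 and 60 min, 0 to 2 for Sst over Pvalb lysates at 15 min, 2 to 4 for purified over lysate in Pvalb at 15 min and 3 to 5 in Sst at 60 min, and 1 to 4 for the Sst time set difference. It gave 0 to 1 for shock over box in purified Sst at 15 min, for shock over home cage there and in Camk2a at 60 min, and for the shock response of purified minus lysate in Pvalb at 60 min and Sst at 15 min. Where 1 library of a group was left, it was assumed to vary like the others.

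Signs turned for 5 values that passed the test in the report or in the alternative: Cldn5 in purified over lysate, Sst 15 min, home cage alone (-0.17 log2), Pecam1 there in shock alone (1.06), Ly6c1 at 60 min in shock alone (-0.0079), Flt1 at 60 min without either kind of library (-0.28) and Ly6c1 in the Sst time set difference without libraries low in Sst (0.10). Of 9069 values, 8657 were classed as unchanged. That class holds values that kept direction and side of the threshold. It also holds uncalled values whose sign turned within the SE of the report, and values for which the alternative gave no adjusted p. Cdh5 and Kdr, at few CPM, had the widest errors, and uneven depth limits what low counts can show.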

Other observations

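Abcb1b, the copy of Abcb1a next to it in the genome, was lower in purified than in lysate RNA in all 6 tables, at -1.32, -1.40, -1.62 and -1.004 log2 where it passed edgeR's test (Camk2a 15 min, Pvalb 15 and 60 min, Sst 60 min) and at -1.01 (Camk2a 60 min) and -1.17 (Sst 15 min) where it did not. Abcb1a in the Pvalb line was at -0.11 ± 0.29 and 0.55 ± 0.28 log2 (SE) and was not called. The difference between the copies was not tested.

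Among ligands of the receptors followed here, Vegfb and Pgf, which bind Flt1, rose in purified Pvalb and Sst RNA at both times. Vegfb rose by 0.89 ± 0.13 and 0.80 ± 0.08 log2 in Pvalb and by 0.80 ± 0.16 and 1.22 ± 0.18 log2 in Sst purified RNA at 15 and 60 min, and Pgf by 0.91 ± 0.17 and 1.18 ± 0.13 log2 in Pvalb and by 1.02 ± 0.20 and 1.31 ± 0.20 log2 in Sst (SE).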
